A study of Mus musculus with 4 samples.

Results

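The respiratory chain and ATP synthase were examined through every probe set whose platform gene symbol belongs to the Nduf, Sdh, Uqcr, Cox4 to Cox8 or Atp5 families. This rule took 187 of 45,037 probe sets, which named 90 genes alone, out of 18,193 genes named alone on the platform. By complex, these were 34 genes of complex I, 4 of complex II, 8 of complex III, 19 of complex IV, 17 of complex V and 8 assembly factors that share a family name. The rule used names only and no measured value. A filter on low values left 171 of the 187 probe sets, and 86 of the 90 genes kept at least 1 probe set of their own, namely 78 subunits and the 8 assembly factors. All differences below are Myc-depleted minus control on the log2 scale, so that 1 unit is a 2-fold difference.

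The arrays compared Myc-depleted bronchoalveolar stem cells (BASCs) with control BASCs, 2 arrays each. BASCs are lung cells that were sorted here from 4 to 6 week old ICR mice as CD31-, CD45-, CD34+ and Sca-1+ and cultured on irradiated mouse embryonic fibroblasts, a feeder layer, with later culture on collagen also described. No source used here says if feeder cells were left in the material that went onto the arrays. The Myc-depleted cells carried a lentiviral short hairpin RNA against c-Myc. The labels' treatment protocol describes stable lines made by puromycin selection, without stating that the RNA on the arrays came from them. The control cells are named control in the labels and wild type in the study, and no source used here says if they were infected or treated with puromycin, so depletion cannot be told apart from these. Nothing ties the arrays of a group to separate cultures either, so the p-values reflect array-to-array spread that may be technical.

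Oxidative phosphorylation runs on 4 electron-carrying complexes and a rotary ATP synthase in the inner mitochondrial membrane. Complex I (NADH dehydrogenase) and complex II (succinate dehydrogenase) pass electrons to ubiquinone, complex III passes them on to cytochrome c, and complex IV (cytochrome c oxidase) hands them to oxygen. Complexes I, III and IV pump protons, and complex V (ATP synthase) lets the protons back to make ATP. Most subunits are encoded in the nucleus, and the genes measured here are those of them that the family names reach. Myc with its partner Max binds E-boxes, of which CACGTG is the classical form. Other factors are known regulators of nuclear genes for the chain, such as ETS factors including GABP (nuclear respiratory factor 2) and nuclear respiratory factor 1 (NRF1).

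The promoters of the members show which of these letters lie near their starts. Windows of 300 bases, 250 before and 50 after the annotated start, came from RefSeq on assembly GRCm38.p6 and were found for 63 of the 78 subunits. The search covered both strands for the E-box CACGTG, for the ETS-type CCGGAAG and for the palindromic NRF1 site, whose letters stand in capitals in the last 5 stretches below, and no matches of different motifs overlapped in the members. Of the 63 subunits, 6 held the E-box (9.52%), against 2187 of 27,025 genes with a window (8.09%). The ETS letters were in 17 subunits (27.0%), against 9.93% of all genes with a window, and the NRF1 letters were in 4 (6.35%), against 1.07%. These shares take in genes not tested on the arrays and are not matched for expression level, so they do not show a trait particular to the chain. The E-box subunits were Ndufa7 and Ndufv1 of complex I and Atp5g1, Atp5g3, Atp5l and Atp5pb of complex V. Stretches of 30 bases, 5′ to 3′ on the gene's strand with the E-box in capitals, are given for those where it lay far enough from the window's edge, since these are the members in which the depleted factor's classical letters were found:
Ndufa7, chr17:33824488-33824517, + strand: gcggagaggagtCACGTGagcaggggatgc
Ndufv1, chr19:4012907-4012936, - strand: agcagagggcgaCACGTGagcctggtttac
Atp5g1, chr11:96075658-96075687, - strand: agggactccgaaCACGTGggtgggggagct
Atp5g3, chr2:73911547-73911576, - strand: acccctgcctggCACGTGcaaggagcgagg
Atp5l, chr9:44920872-44920901, - strand: ctcaggattcttCACGTGttatcgcgcctc

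The ETS letters lay in the promoters of Uqcr11 and Atp5e, the subunits with the 2 largest positive differences, and also in those of Cox8a and Sdhb, the 2 of the 17 with a negative difference (-0.13 and -0.039). The NRF1 letters lay in the promoters of 2 subunits with a negative difference, Atp5g2 (-0.14) and Uqcrc1 (-0.11), and of 2 with a positive one, Atp5k (0.21) and Cox6a1 (0.087). Among the assembly factors they lay in those of Ndufaf4 and Ndufaf5. Both signs are therefore shown for each motif. Capitals mark CCGGAAG, which reads CTTCCGG where it is on the other strand, in the first 3 and the NRF1 site in the other 5:
Uqcr11, chr10:80406869-80406898, - strand: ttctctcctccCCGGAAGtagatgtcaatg
Atp5e, chr2:174464185-174464214, - strand: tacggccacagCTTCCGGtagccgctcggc
Cox8a, chr19:7217603-7217632, - strand: tttccgaaataCTTCCGGctcgggcgtccg
Atp5k, chr5:108434430-108434459, - strand: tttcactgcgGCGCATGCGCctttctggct
Cox6a1, chr5:115349101-115349130, - strand: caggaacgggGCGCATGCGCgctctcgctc
Atp5g2, chr15:102671070-102671099, - strand: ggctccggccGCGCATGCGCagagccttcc
Uqcrc1, chr9:108936668-108936697, + strand: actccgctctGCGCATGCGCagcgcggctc
Ndufaf4, chr4:24897960-24897989, + strand: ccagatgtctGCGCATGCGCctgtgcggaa

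Several facts about the arrays touch every result. Myc had log2 values of 8.35 and 8.50 in Myc-depleted cells, against 9.21 and 9.69 in control cells, a difference of -1.02 (standard error 0.21, adjusted p = 0.363 in limma). Likeness between arrays did not follow the groups throughout. Over all probe sets the values of Myc-depleted 1 correlated more with control 2 (0.990) than with Myc-depleted 2 (0.981), and those of Myc-depleted 2 with control 1 at 0.990, while the control arrays correlated at 0.991. The signal of 3′ over 5′ probe sets of the poly-A spike-in controls differed within both groups. It stood at 3.67 and 1.50 log2 units in Myc-depleted 1 and 2, against 1.62 and 3.01 in control 1 and 2. The control arrays were thus apart in this value, although their correlation was the highest of any pair. The defining BASC markers Cd34, Sftpc and Scgb1a1 lay below the filter on every array, at most 4.75, as did the removed markers Pecam1 and Ptprc, and Ly6a (Sca-1) is not analysed here. The 8 fibroblast markers all passed the filter on the mean of the 4 arrays, with Col1a2 between 14.27 and 14.56 and Vim between 14.39 and 14.53. Their mean level was 11.35 and 11.08 in Myc-depleted cells, against 11.10 and 11.23 in control cells, with 3 higher, 2 lower and 3 overlapping. Of all genes, 26.6% were higher and 20.8% lower without overlap. Among them Pdgfra had 11.70 and 11.36 in Myc-depleted cells, against 10.31 and 10.29 in control cells. Thy1 had 4.68 and 4.75 in Myc-depleted cells, below the filter limit of 5.08, against 6.02 and 5.92 in control cells. The part of these in the results below was not tested.

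The 78 subunits differed little between Myc-depleted and control cells. Their median difference was 0.046, with quartiles of -0.040 and 0.146, and the whole range ran between -0.14 (Ndufb1) and 0.38 (Uqcr11). Over all 12,589 genes the median was 0.022 and the quartiles were -0.135 and 0.175. Differences were positive for 51 subunits and negative for 27, a positive share that stands beside 54.0% of all genes. No subunit differed by 0.5 or more in either direction, whereas 9.72% of all genes did. In bulk RNA, fewer cells of a type and less RNA per cell cannot be told apart. The 95% confidence interval of every one of the 78 differences lay within a 2-fold difference either way, and that of 49 lay within 0.5 log2 units. Standard errors were 0.11 to 0.21, and in 49 subunits the larger gap between arrays of a group exceeded the difference between the groups.

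Most subunit probe sets were bright, so genes of like brightness were set beside them. Of the 78 subunits, 68 had a mean log2 value of 10 or more, as did 2475 other genes. The interquartile range was 0.204 for these subunits and 0.312 for the other genes, and the medians were 0.048 and -0.015. A difference of 0.5 or more was seen in 0 of the 68 subunits and in 7.15% of the other genes (6.96% of all genes at that brightness). Differences above 0 were found in 44 of the 68 subunits, beside 47.9% of all such genes. Both Myc-depleted arrays lay above both control arrays in 28 of the 68, beside 25.5%, and below them in 5, beside 26.5%.

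**Figure D1:**
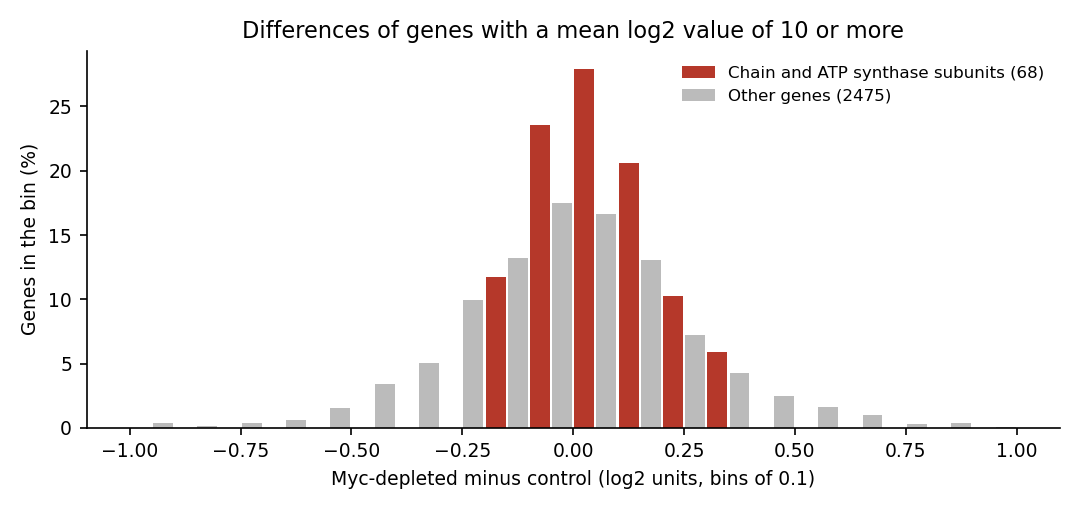
Share of genes (vertical axis, %) by difference, Myc-depleted minus control in log2 units (horizontal axis, bins of 0.1), for the 68 subunits (red) and the 2475 other genes (grey) with a mean log2 value of 10 or more. The red bars end within 0.5 on either side, while 7.15% of the other genes lie at or beyond it; the 0.242% of other genes under -1 and the 0.485% at or over 1 are outside the plot.

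No member passed the test. In limma with Benjamini-Hochberg adjustment over all 27,022 probe sets, 0 of the 171 member probe sets were called, where the background was likewise 0% (0 of all probe sets). At an unadjusted p under 0.05, 2 member probe sets were higher in Myc-depleted cells, where 5.63% of all probe sets were, and 0 were lower, where 4.46% were. The 2 were the only probe set of Uqcr11 and 1 of the 3 of Cox7a2l. By gene this left 1 subunit higher (Uqcr11), where 6.96% of all genes were, and 0 lower, where 5.23% were. By the methods' ANOVA at the same unadjusted threshold, 14 member probe sets were higher, where 5.52% of all probe sets were, and 2 were lower, where 3.81% were. By arrays, both Myc-depleted values lay above both control values in 29 of the 78 subunits, and both lay below in 7. Among all genes the shares were 26.6% higher and 20.8% lower. With 2 arrays against 2, an exact permutation test cannot go below p = 0.33 (two-sided).

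**Figure D2:**
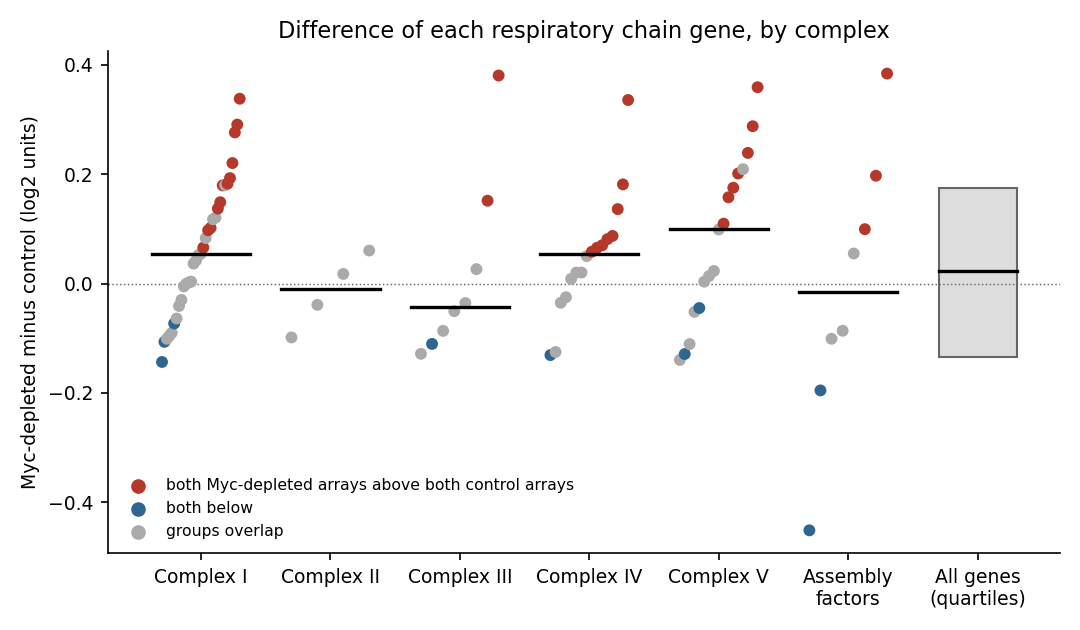
Difference of each member gene, Myc-depleted minus control in log2 units (vertical axis), by complex, with black bars at the medians; red points have both Myc-depleted arrays above both control arrays, blue points both below, and grey points overlap. The grey box gives the quartiles of all 12,589 genes, -0.135 and 0.175. Ndufaf4 at -0.45 and Ndufaf3, Uqcr11 and Atp5e at 0.36 to 0.38 lie farthest from 0.

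The complexes were compared next. The median difference was 0.099 for complex V (17 genes), 0.055 for complex I (33), 0.054 for complex IV (16), -0.011 for complex II (4) and -0.043 for complex III (8). The order was not the same in every pairing of arrays. When each Myc-depleted array was set against each control array in turn, the 4 medians were all above 0 for complexes I (0.003 to 0.115), IV (0.046 to 0.087) and V (0.019 to 0.089). They ran between -0.109 and 0.083 for complex III and between -0.170 and 0.184 for complex II. Single arrays and probe sets moved these medians. Without Myc-depleted 1 it was 0.032 for complex V and 0.062 for complex III. Without the _x_at and _s_at probe sets it was 0.023 for complex V. That run is over fewer genes, as Atp5e and Atp5d have no other tested probe set.

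The mean deviation of a complex's genes from their 4-array means shows the arrays one by one. Complex V stood at 0.041 and 0.041 in the Myc-depleted arrays, against -0.039 and -0.044 in the control arrays, so that the groups did not overlap. Complex I stood at 0.029 and 0.037 in Myc-depleted cells, against -0.015 and -0.051 in control cells, and complex IV at 0.015 and 0.035 against -0.012 and -0.038. In complex II the order followed the arrays and not the groups, with -0.118 and 0.103 in Myc-depleted 1 and 2, against 0.068 and -0.054 in control 1 and 2. Complex III stood at -0.045 and 0.064 against 0.026 and -0.044, in that same order of arrays.

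**Figure D3:**
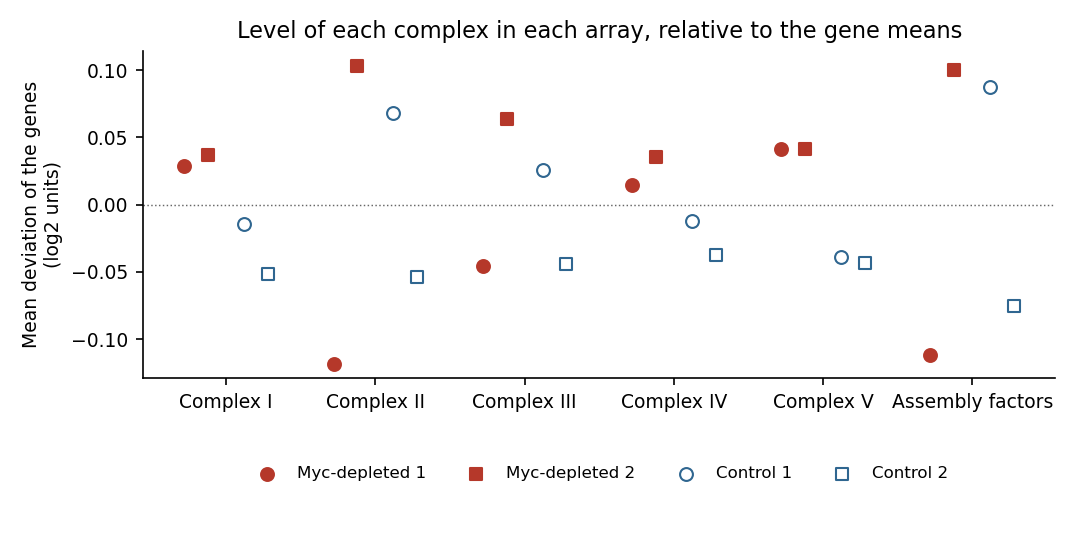
Mean deviation of the genes of each complex from their means over the 4 arrays (vertical axis, log2 units), with filled red marks for Myc-depleted arrays, open blue marks for control arrays, circles for number 1 and squares for number 2. In complexes I, IV and V both red marks lie above both blue marks; in complexes II and III and the assembly factors Myc-depleted 1 and control 2 lie below Myc-depleted 2 and control 1.

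The order seen in complex II was frequent among single genes. Myc-depleted 1 and control 2, the arrays with the high spike-in value, were both below the other array of their group in 4 of 4 complex II genes, 7 of 8 assembly factors, 4 of 8 complex III genes, 16 of 33 complex I genes, 7 of 17 complex V genes and 6 of 16 complex IV genes. Over the 78 subunits this was 37 (47.4%), against 34.3% of all genes. The opposite order was found in 23 subunits (29.5%), against 34.2% of all genes.

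Complex I takes electrons from NADH and is the largest of the complexes. Ndufa12, an accessory subunit, had 11.69 and 11.89 in Myc-depleted cells, against 11.46 and 11.45 in control cells. The groups did not overlap, and the difference was 0.34 (standard error 0.13, adjusted p = 0.518 in limma). A pair of further probe sets of Ndufa12 gave 0.34 and 0.36. Like the one used, they are of the _x_at and _s_at kinds, which can also read other transcripts. The remaining one, not of these kinds but dim and near the filter limit, gave -0.010. Ndufa13, an accessory subunit also known as GRIM-19, had 12.03 and 11.88 in Myc-depleted cells, against 11.62 and 11.71 in control cells, a difference of 0.29. Ndufs7, a core subunit that carries the last iron-sulfur cluster before ubiquinone, had 10.98 and 10.94 against 10.64 and 10.72, a difference of 0.28, and 0.18 by its other probe set. Ndufb10, an accessory subunit of the membrane arm, had 10.98 and 10.87 against 10.71 and 10.76, a difference of 0.19. In these 4 genes both Myc-depleted values were above both control values.

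Other complex I genes stood on the other side or near 0. Ndufb1, a small accessory subunit and the lowest difference among the subunits, had 7.54 and 7.68 in Myc-depleted cells, against 7.77 and 7.74 in control cells, a difference of -0.14. Ndufs1, the large iron-sulfur core subunit of the NADH-oxidising arm, had 10.62 and 10.61 in Myc-depleted cells, against 10.67 and 10.70 in control cells, a difference of -0.073. Its partners in that arm, Ndufv1 and Ndufv2, differed by 0.055 and -0.090 with overlapping groups. Ndufa3, an accessory subunit with the brightest probe set of the complex, had 12.52 and 12.75 against 12.57 and 12.34, which overlap. By part, the 3 core subunits of the quinone-binding arm (Ndufs3, Ndufs7 and Ndufs8) had a median of 0.102 and the 3 of the NADH-oxidising arm one of -0.073. The 27 accessory subunits had a median of 0.066, with 10 higher and 2 lower without overlap, where 26.6% and 20.8% of all genes were.

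Complex II joins the citric acid cycle to the chain and has 4 subunits, whose brightest probe sets all overlapped between the groups. Sdha, the flavoprotein that oxidises succinate, had 10.65 and 10.93 in Myc-depleted cells, against 10.98 and 10.81 in control cells. Sdhb, the iron-sulfur subunit, had 11.26 and 11.31 against 11.34 and 11.30. The membrane anchors were no different in this respect: Sdhc had 9.70 and 10.03 against 9.82 and 9.79, and Sdhd had 10.49 and 10.71 against 10.71 and 10.46. Differences were -0.098, -0.039, 0.060 and 0.018 for Sdha, Sdhb, Sdhc and Sdhd, with standard errors of 0.11 to 0.16. Dimmer probe sets of Sdha (0.18) and Sdhd (0.12), 1 of each gene, were higher without overlap, so the sign for Sdha depends on the probe set. That for Sdhc does too, as its other probe set gave -0.054.

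Complex III held the member with the smallest p. Uqcr11, the smallest subunit of the complex, had 11.21 and 11.32 in Myc-depleted cells, against 10.87 and 10.91 in control cells. The lower Myc-depleted array exceeded the higher control array by more than either gap within a group. The difference was 0.38 (standard error 0.12, 95% confidence interval 0.058 to 0.70, adjusted p = 0.447 in limma). Uqcrh, the hinge protein, had 12.18 and 12.18 against 12.03 and 12.03, a difference of 0.15 that its second probe set gave as 0.17. The core proteins stood below 0. Uqcrc1 had 11.01 and 11.10 in Myc-depleted cells, against 11.18 and 11.15 in control cells, which did not overlap, a difference of -0.11. Uqcrc2 had 11.04 and 11.53 against 11.50 and 11.32, a difference of -0.13 with a gap between the Myc-depleted arrays several times as large. The other small subunits Uqcr10 (-0.086), Uqcrb (-0.050) and Uqcrq (0.026), and Uqcrfs1 (-0.036), the Rieske iron-sulfur protein, overlapped between the groups. Cyc1, the cytochrome c1 subunit, is missed by the family names, left out of the complex III median and counted below with the electron carriers. It had 11.22 and 11.67 in Myc-depleted cells, against 11.77 and 11.58 in control cells, a difference of -0.23 with overlap.

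Complex IV reduces oxygen, and several of its nuclear subunits come in ubiquitous and tissue-restricted forms. Cox7a2l, a Cox7a-related protein that joins complexes III and IV into supercomplexes and is counted here with complex IV, had 12.30 and 12.17 in Myc-depleted cells, against 11.84 and 11.95 in control cells. The groups did not overlap, and the difference was 0.34 (standard error 0.12, adjusted p = 0.505 in limma). All 3 of its probe sets were higher, by 0.31 to 0.40. Ndufa4, named for complex I but placed in complex IV, had 12.16 and 12.26 against 12.07 and 11.98, a difference of 0.18. The ubiquitous forms Cox4i1 (0.058), Cox6a1 (0.087) and Cox6b1 (0.081) were also higher on both Myc-depleted arrays, by under 0.1, with standard errors of 0.11. Cox6a1, for instance, had 13.56 and 13.58 in Myc-depleted cells, against 13.49 and 13.48 in control cells. Cox8a differed by -0.13 with overlapping groups, and by -0.14 by its other probe set. Over the 16 genes of the complex, 8 were higher and 1 lower without overlap, where 26.6% and 20.8% of all genes were. Cox7a2 (0.009) overlapped, as did the brightest probe set of Cox5a (-0.025). Of the other probe sets of Cox5a, 1 was lower (-0.18) and 1 higher (0.075), each without overlap.

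The tissue-restricted forms were dim. Cox8b of muscle and heart, Cox6b2 of testis and Cox7b2 lay below the filter on the mean of the 4 arrays, and so did the only probe set that names Ndufb4 alone, although a pair of probe sets shared by Ndufb4 and its copies passed it. Cox4i2, the lung and hypoxia form of Cox4, had 5.20 and 5.19 in Myc-depleted cells, against 5.04 and 5.08 in control cells, with the filter at 5.08. Cox7a1 (5.28 and 5.18 against 5.11 and 5.24) and Ndufa4l2, a paralog of Ndufa4 known from hypoxia (5.02 and 5.25 against 5.23 and 5.001) were as close to it and overlapped. Cox6a2, the muscle form of Cox6a, had 5.96 and 6.00 in Myc-depleted cells, against 6.02 and 6.19 in control cells, a difference of -0.13, and Cox8c, a testis form, overlapped at 0.020. No isoform pair showed a difference of 0.5 or more in either of its forms. The probe set used for Cox7c was dim too, at 7.02 and 6.65 against 6.997 and 6.74, and is a poor reading of that gene.

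Complex V had the highest median of the 5 complexes, although without Myc-depleted 1 its median (0.032) was the lowest of the 5. Differences between its parts were not tested. Atp5e, the epsilon subunit of the central stalk, had 11.47 and 11.23 in Myc-depleted cells, against 10.90 and 11.08 in control cells. The groups did not overlap, and the difference was 0.36 (standard error 0.15, adjusted p = 0.551 in limma). Atp5d, the delta subunit of the same stalk, had 12.75 and 12.65 against 12.32 and 12.51, a difference of 0.29, and 0.32 by its other probe set. Atp5b, the catalytic beta subunit, had 12.43 and 12.67 against 12.36 and 12.39, a difference of 0.18. Atp5c1, the gamma subunit, differed by 0.11. Atp5a1, the alpha subunit, stood apart with 12.55 and 12.69 in Myc-depleted cells, against 12.80 and 12.70 in control cells, a difference of -0.13, but its other probe sets gave 0.14 and 0.27. The 5 genes of the head and central stalk had a median of 0.175, and none overlapped between the groups (4 higher and 1 lower). Of all genes, 26.6% were higher and 20.8% lower without overlap.

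In the rest of the synthase, the groups overlapped in all 3 ring genes and in 3 of the 4 genes of the peripheral stalk. Of the 5 small membrane subunits, 2 overlapped, 2 were higher and 1 was lower without overlap. Among all genes, 26.6% were higher and 20.8% lower without overlap. The 3 genes for subunit c, which forms the rotating ring and is encoded by Atp5g1, Atp5g2 and Atp5g3, differed by -0.11, -0.14 and 0.014. Atp5g2 had 11.50 and 11.81 in Myc-depleted cells, against 11.90 and 11.68 in control cells, and Atp5g1 had 10.51 and 10.77 against 10.81 and 10.69. Atp5g3 had 13.50 and 13.54 against 13.56 and 13.45. Of the stator and small membrane subunits, Atp5j2 had 12.64 and 12.65 in Myc-depleted cells, against 12.42 and 12.39 in control cells, a difference of 0.24. Atp5h, of the peripheral stalk, had 12.76 and 12.58 against 12.43 and 12.51, a difference of 0.20. Atp5md, a small membrane subunit, had 9.79 and 9.44 against 9.54 and 9.49, which overlap. The median was 0.158 over the 5 small membrane subunits and 0.013 over the 4 of the peripheral stalk.

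**Figure D4:**
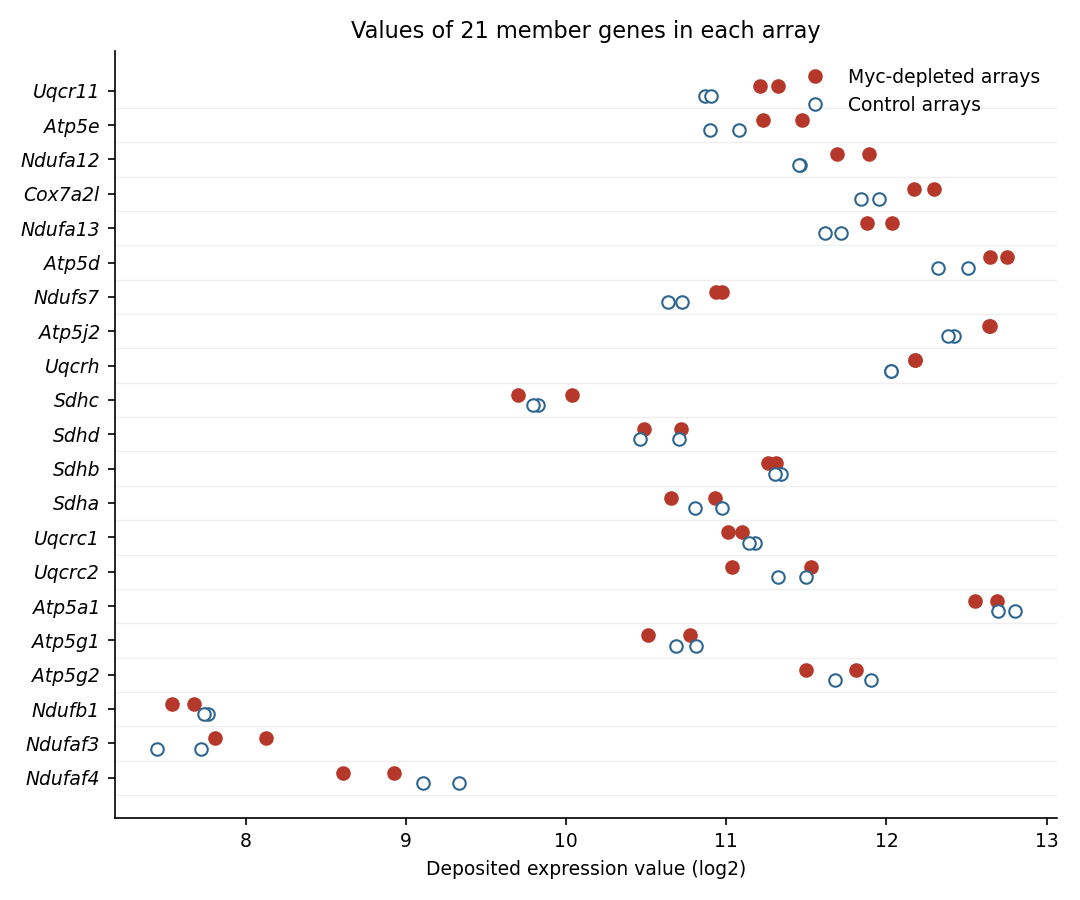
Deposited log2 values (horizontal axis) of 21 member genes in the Myc-depleted arrays (red) and the control arrays (open blue circles), 2 each. Uqcr11 to Uqcrh, Ndufaf3 and Ndufaf4 are among those whose groups do not overlap, while the 4 succinate dehydrogenase genes overlap; values of different genes come from different probe sets and are not comparable in level.

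The 8 assembly factors that the family names brought in had an interquartile range of 0.248, against 0.186 for the 78 subunits. Ndufaf4, a complex I assembly factor, had 8.61 and 8.93 in Myc-depleted cells, against 9.33 and 9.11 in control cells. Both Myc-depleted values were lower, and the difference was -0.45 (standard error 0.17, adjusted p = 0.521 in limma), the largest in size of the 86 genes. Its second probe set gave -0.35, again without overlap. Ndufaf3, another complex I assembly factor, had 7.81 and 8.13 in Myc-depleted cells, against 7.72 and 7.45 in control cells, a difference of 0.38. Ndufaf1 had 9.07 and 9.24 against 9.01 and 8.91, a difference of 0.20. The median over the 8 was -0.016, with 3 higher and 2 lower without overlap, where 26.6% and 20.8% of all genes were.

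The probe sets of a gene did not always point the same way. Of 47 member genes with several tested probe sets, 19 had probe sets of opposite sign, Sdha, Uqcrc2, Atp5a1 and Atp5g2 among them. Over all 171 tested member probe sets, 118 differences were positive and 53 negative. Of the 187, 51 belong to kinds (_x_at and _s_at) that can also read other transcripts. All tested probe sets of Ndufa13, Atp5e and Atp5d were of these kinds, as were those of Ndufa12 apart from its dim one.

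**Figure D5:**
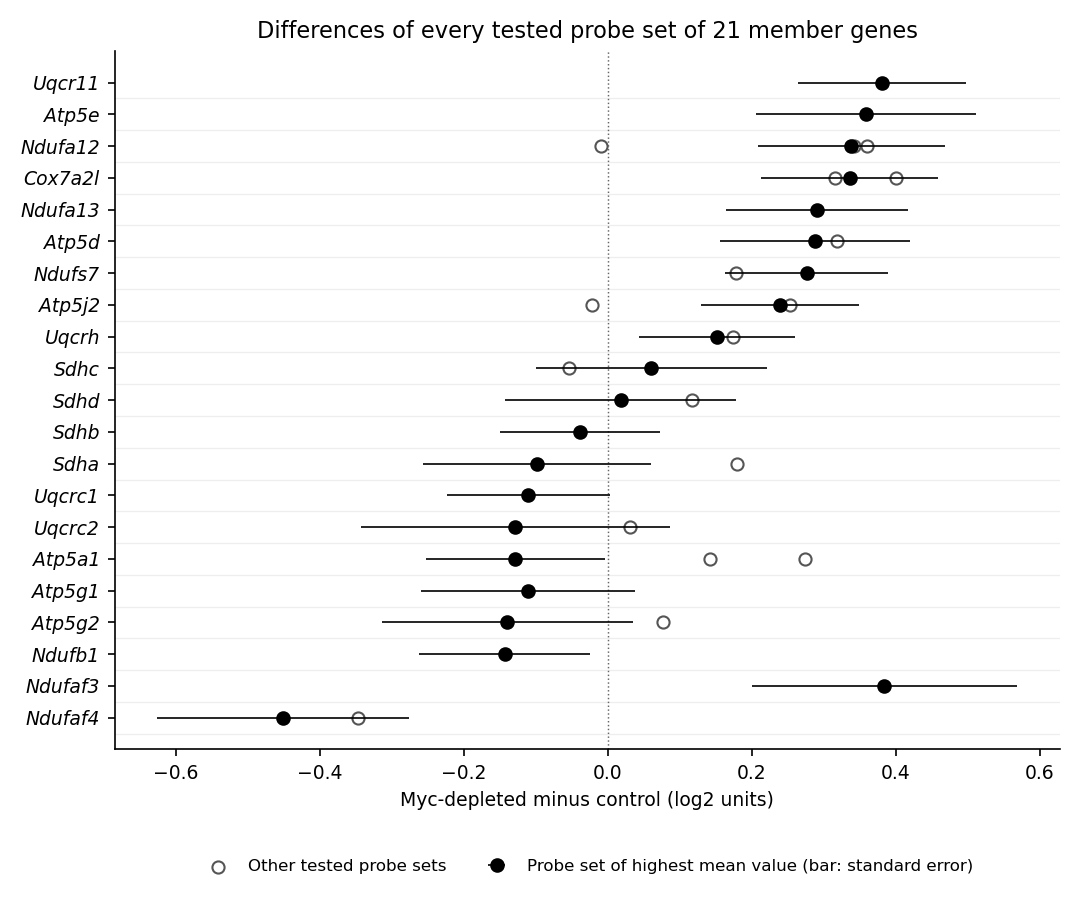
Difference, Myc-depleted minus control in log2 units (horizontal axis), of every tested probe set of the same 21 genes; black points are the probe set of highest mean value with its standard error, open circles the others. Cox7a2l, Atp5d and Ndufaf4 have their probe sets on 1 side of 0, while Sdha and Atp5a1 have them on both.

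The spike-in value was also entered as a covariate, which leaves 1 residual degree of freedom. In that fit limma called 3171 of the 27,022 probe sets (11.7%, with 5.21% higher and 6.52% lower). Why more were called was not tested. Of the 171 member probe sets 2 were called (1.17%), both of assembly factors. These were Ndufaf3, at 0.43 (adjusted p = 0.045), and Ndufaf4, at -0.41 (adjusted p = 0.048). Myc itself was called in that fit, at -1.04 (adjusted p = 0.019). No subunit was called, the smallest adjusted p among subunit genes being 0.060 for Uqcr11. At an unadjusted p under 0.05, 15 member probe sets were higher and 2 lower, where 13.5% of all probe sets were higher and 16.5% lower.

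Promoter letters were set beside the differences as a description. The 6 subunits with an E-box had a median of 0.034 and the 57 without it 0.066. The 17 with the ETS letters had a median of 0.099, with 15 positive, and the 46 without them 0.032, with 27 positive. The 4 with the NRF1 letters had a median of -0.012 and the 59 without them 0.055. The E-box genes printed above ran between -0.11 (Atp5g1) and 0.16 (Atp5l), and each had a standard error of at least 0.11.

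Genes that feed, build and regulate the chain were taken from 5 lists, and none of their genes passed the adjusted threshold. Of 17 electron carriers and other inputs, 9 were positive and 8 negative, with a median of 0.011, and 0 reached an unadjusted p under 0.05. At that threshold 6.96% of all genes were higher and 5.23% lower. Cycs, somatic cytochrome c, had 12.93 and 13.17 in Myc-depleted cells, against 13.33 and 13.23 in control cells, a difference of -0.23. Coq9, of ubiquinone synthesis, and Etfdh, which feeds electrons of fat oxidation into ubiquinone, differed by 0.30 and 0.20 without overlap, and Coq8a by 0.37 with overlap. Of 39 further assembly factors, 18 were positive and 21 negative, with a median of -0.006. Surf1, an assembly factor of complex IV, had 10.10 and 10.09 in Myc-depleted cells, against 9.64 and 9.61 in control cells, a difference of 0.47 (standard error 0.11, adjusted p = 0.386 in limma). Pet100, also of complex IV, and Sdhaf4, of complex II, each differed by 0.31 without overlap. Over the list of 39, 7 genes were higher and 9 lower without overlap, where 26.6% and 20.8% of all genes were. The lower ones included Coa7 (-0.32) and Cox11 (-0.25) of complex IV assembly and Lrpprc (-0.27), which binds mitochondrial messenger RNAs.

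The carriers and regulators gave a few larger values. Of 7 genes for carriers and channels of adenine nucleotides and phosphate, 2 were positive and 5 negative. Slc25a5, the ADP/ATP carrier ANT2, had 12.55 and 12.75 in Myc-depleted cells, against 13.05 and 12.94 in control cells, a difference of -0.34. Slc25a3, the phosphate carrier, differed by 0.22 and Vdac1, an outer membrane channel, by -0.13, both without overlap. Of 14 regulators, 5 were positive and 9 negative, with 1 at an unadjusted p under 0.05 in each direction. Among all genes 6.96% were higher and 5.23% lower at that threshold. Polrmt, the mitochondrial RNA polymerase, had 8.88 and 9.19 in Myc-depleted cells, against 8.54 and 8.45 in control cells, a difference of 0.54. Pprc1, the PGC-1-related coactivator, had 10.11 and 9.90 against 10.46 and 10.43, a difference of -0.44. Ppargc1b, the coactivator PGC-1 beta, had 5.29 and 5.23 in Myc-depleted cells, against 4.93 and 4.98 in control cells, so that both control values were below the filter limit of 5.08.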

How the data were processed

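Expression was measured on 4 single-colour Affymetrix mouse arrays, 2 of Myc-depleted and 2 of control BASCs. The values, as deposited, are log2 expression per probe set and were used as given. The authors' methods name Robust Multichip Average in Partek, the submitters' processing notes name Partek 6.4 and GCRMA, and which of them made the values was not settled; it matters most for dim probe sets. The number of arrays limits the precision.

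Of 45,101 probe sets, 64 controls were left out, and 27,022 of the remaining 45,037 had a 4-array mean at or above the 40th percentile (log2 5.08) and entered the test, limma (version 3.58.1, under R 4.3.3), with Benjamini-Hochberg adjustment over all of them and a threshold of 0.05. The script was tested on simulated data. A gene is represented by its tested probe set of highest mean that names it alone in the platform annotation (12,589 genes; all 86 member genes matched RefSeq by Entrez identifier). The methods' ANOVA is a plain analysis of variance by group on the same values. Complex membership and roles were assigned by hand.

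Named are Myc; per complex up to 4 genes of smallest p, the extremes in difference and level; all tissue-restricted isoforms; up to 3 assembly factors and up to 3 genes per pathway list; and further members to describe a spread. Members, lists and rules were chosen with earlier results of these data known. Alternatives covered the filter, scaling, variance model, test, probe set choice, blocks, the spike-in covariate and each array left out. Promoter windows are RefSeq's (GRCm38.p6).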

Additional observations from a re-analysis of the deposited data

How the results depend on the processing

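With 2 arrays per group, 1 array decides many of these small differences, and the 95% interval of every subunit's difference except that of Uqcr11 included 0. The adjusted test called 0 probe sets under every filter, scaling and variance model, under the methods' ANOVA and without any 1 array. Calls were made with the spike-in covariate (3171 probe sets, 2 of members). An unadjusted p under 0.05 with a fold above 2 gave 316 probe sets, 0 of members in either direction. The cause of these changes was not tested.

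Member probe sets at an unadjusted p under 0.05 were 2 higher and 0 lower in the values reported. They were 6 higher and 1 lower without a filter, where 4.82% and 3.67% of all probe sets were, 4 higher with the arrays shifted to a common median (5.67% of all), and 14 higher with a variance trend (5.56% of all). They were 14 higher and 2 lower by the methods' ANOVA (5.52% and 3.81% of all), and 15 higher and 2 lower with the spike-in covariate (13.5% and 16.5% of all). With arrays left out in turn they ranged between 0 and 3 higher (1.47% to 6.83% of all) and between 0 and 1 lower (1.14% to 7.1% of all). The replicate numbers come from the array titles, which do not say if same-numbered arrays were handled together. The deviations of same-numbered arrays correlated at -0.766, and whether the numbers mark a pairing was not settled. With the replicate block, 0 member probe sets were higher at an unadjusted p under 0.05 (2.15% of all), and 0 probe sets were called after adjustment. A block that crossed the numbers, chosen after seeing the data, called 21 probe sets, 0 of members, with 10 member probe sets higher and 1 lower at an unadjusted p under 0.05, where 9.95% and 11% of all probe sets were.

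Among the 86 member genes, 9 were lower and 32 higher without overlap, where 20.8% and 26.6% of all genes were. Leaving out 1 array gave 11 to 29 lower, with 16 and 29 without Myc-depleted 1 and 2 and 27 without control 2. The higher ones were then 37 to 45. Groups with fewer arrays can overlap less often, so these counts are not like those from all arrays. Shares over all genes were not counted for these runs, and the cause of the spread between them was not tested. The count of negative differences in complex II was 1 with the mean of all probe sets and 1 to 4 with arrays left out, and in complex III 3 to 6. The complex I median was 0.075 with the mean of all probe sets and 0.039 to 0.081 with arrays left out. The complex V median was 0.105 after the median shift, 0.108 after quantile normalization and 0.072 with the spike-in covariate. It was 0.023 without _x_at and _s_at probe sets, a run that loses Atp5e and Atp5d. With arrays left out it ran between 0.032 (without Myc-depleted 1) and 0.097. The complex IV median ran between 0.065 and 0.071. The complex III median ran between -0.089 and 0.062, with the highest without Myc-depleted 1.

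Of 37 named genes, 24 kept their sign under every alternative in which named genes were followed. They were not followed in the run without _x_at and _s_at probe sets. Ndufa12, among the 24, keeps only its dim probe set there, at -0.010, and Ndufa13, Atp5e and Atp5d keep none. Sdha turned to 0.041 with the mean of its probe sets and Atp5g3 to -0.013 with quantile normalization. With arrays left out, differences that changed sign ran between -0.24 and 0.020 for Atp5g1, -0.30 and 0.017 for Atp5g2, -0.043 and 0.070 for Atp5g3, and -0.072 and 0.27 for Atp5md. They ran between -0.018 and 0.12 for Cox7a1, -0.12 and 0.16 for Cox8c, -0.093 and 0.13 for Ndufa4l2, -0.24 and 0.040 for Sdha, -0.11 and 0.23 for Sdhc, and -0.10 and 0.14 for Sdhd. They ran between -0.20 and 0.022 for Uqcr10, -0.37 and 0.12 for Uqcrc2, and -0.025 and 0.077 for Uqcrq.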

Other observations

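The citric acid cycle, which supplies the chain with NADH and succinate, gave a single large value among 17 genes. Pcx, pyruvate carboxylase, which refills the cycle from pyruvate, had log2 values of 8.84 and 8.42 in Myc-depleted cells, against 7.53 and 7.68 in control cells. Both Myc-depleted values were higher, and the difference was 1.02 (standard error 0.19, unadjusted p = 0.0058, adjusted p = 0.346 in limma), so it did not pass the threshold. Cs, citrate synthase, differed by 0.18 and Dld, the dihydrolipoamide dehydrogenase shared by several dehydrogenase complexes, by -0.24, both without overlap. Fh1, fumarase, had 10.91 and 10.90 in Myc-depleted cells, against 11.07 and 11.08 in control cells, a difference of -0.17. The median over the 17 genes was -0.016, with 7 positive and 10 negative, 4 higher and 3 lower without overlap. Among all genes, 26.6% were higher and 20.8% lower without overlap. Idh3a, a subunit of the NAD-dependent isocitrate dehydrogenase, had 10.67 and 11.46 in Myc-depleted cells, against 11.70 and 11.24 in control cells, and again put Myc-depleted 1 and control 2 below the other arrays.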
